A study of Mus musculus with 6 samples.

Results

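The genes described are 38 genes of autophagy and mitophagy, listed by name, of which 36 had a named probe set among the 19505 genes measured. A probe set is the group of short probes by which the array reads a gene, and none of the 36 had more than 1. *Optn*, a receptor gene, and *Pink1*, a mitophagy kinase gene, are not among the named probe sets and were not analysed here. Expression was measured in the triceps muscle of 6 SAMP-10 mice, an inbred strain that ages early. The u40Hz-stimulation group (n = 3, mice 4, 10 and 11) lived for 5 weeks with continuous vibration and inaudible sound at 40 Hz from a woofer, and the control group (n = 3, mice 1, 6 and 8) had no stimulation. All were males on a normal diet according to the study's methods, the labels name no transgene and no drug, and they give no age. The paper states the age at purchase and at the tests of function, but not at dissection. Neither the labels nor the methods state the hour of dissection or whether the mice had been fed.

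Autophagy is the process by which a cell wraps part of its cytoplasm in a double membrane, the autophagosome, and delivers it to the lysosome for breakdown. A kinase complex around ULK1 starts it. A lipid kinase complex around Beclin 1, the vesicles of ATG9 and the lipid carrier ATG2 build the membrane. A set of conjugating enzymes attaches the small ATG8 proteins (LC3 and GABARAP) to it. Receptors such as p62 then tie cargo to the ATG8 proteins, and mitophagy receptors do so for mitochondria. In skeletal muscle the process supplies amino acids during fasting and clears worn mitochondria, and TFEB is the transcription factor best known for switching on its genes together with those of the lysosome.

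Values are log2 signals as normalized by the authors, so that a difference of 1 is a doubling, and differences are those of a probe set between mice. Differences between the groups were tested in limma, whose linear model pools the spread of the 22206 probe sets, with Benjamini-Hochberg adjustment over the whole array. The mean log2 signal of 10 skeletal muscle markers was from 18.98 to 19.23 in the 6 mice, near the upper limit of the scale, and 8 of them had a lower mean with u40Hz stimulation (median log2 fold change -0.25), 4 without overlap and none at an unadjusted p under 0.05. The mean of 12 slow fibre markers ran from 7.63 (control mouse 6) to 12.81 (control mouse 1), and was between 9.65 and 12.25 in the stimulated mice. Of these markers 11 had a higher mean with stimulation (median log2 fold change 1.38), all with overlap. Of 11 fast fibre markers, some of them also muscle markers, 7 had a lower mean (median -0.19), 3 without overlap. The other fast fibre markers were higher or at the upper limit of the scale. The mean of the 12 measured adipocyte markers (of 14 listed) was 13.06 in u40Hz mouse 4 and from 8.24 to 9.33 in the other mice, and the mean of 7 brown adipocyte markers was 11.13 in that mouse and from 6.55 to 7.22 in the others. The mean with stimulation was higher for 10 of the 12 adipocyte markers (median 1.85) and for 5 of the 7 brown adipocyte markers (median 1.48), all with overlap. Of 8 tenocyte markers 7 had a lower mean with u40Hz stimulation at an unadjusted p under 0.05 from limma, with list means from 7.53 to 8.85 in the control group and from 6.43 to 7.33 in the stimulated group. Of 7 measured macrophage markers (8 listed) 6 had a lower mean with stimulation (median -0.37, 2 without overlap), with list means between 7.54 and 8.12. All 7 endothelial markers had a higher mean (median 0.54, 1 without overlap), with list means between 8.79 and 9.70. Neither list held a gene at an unadjusted p under 0.05, and only 2 of 7 red blood cell markers were measured, so that list was not read. Whole muscle was measured, and fewer cells of a type cannot be told apart from less RNA per cell. Fits with the slow fibre or the adipocyte mean as a covariate are given with the genes. What part the muscle, fast fibre, tenocyte, macrophage and endothelial markers have in the results was not tested.

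No gene of the list passed an adjusted p under 0.05 in limma, and of all probe sets 0.0% passed it. The smallest adjusted p of a member was 0.635. At an unadjusted p under 0.05 there were 2 of 36 members, or 5.56%, where 7.01% of all probe sets lay under it (3.86% higher and 3.15% lower). Both were lower with u40Hz stimulation. They were *Atg101* of the initiation complex and *Gabarapl2* of the ATG8 proteins. The groups did not overlap for 5 members, 13.9% of the list, against 12.4% of all probe sets (6.4% higher and 6.05% lower). Of these, *Atg101*, *Gabarapl2* and *Ulk2* were lower and *Atg3* and *Tax1bp1* higher with u40Hz stimulation. The mean was higher for 14 members and lower for 22, with a median log2 fold change of -0.06, beside 0.01 for all probe sets, of which 51.0% were higher and 49.0% lower. The median size of the difference, without its sign, was 0.18 for the members and 0.20 for all probe sets. The shares at an unadjusted p under 0.05 and without overlap are near those of the array as a whole, and nothing in them is particular to the list. The share with a higher mean was 38.9% for the members, against 51.0% of all probe sets, and this difference was not tested.

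**Figure D1:**
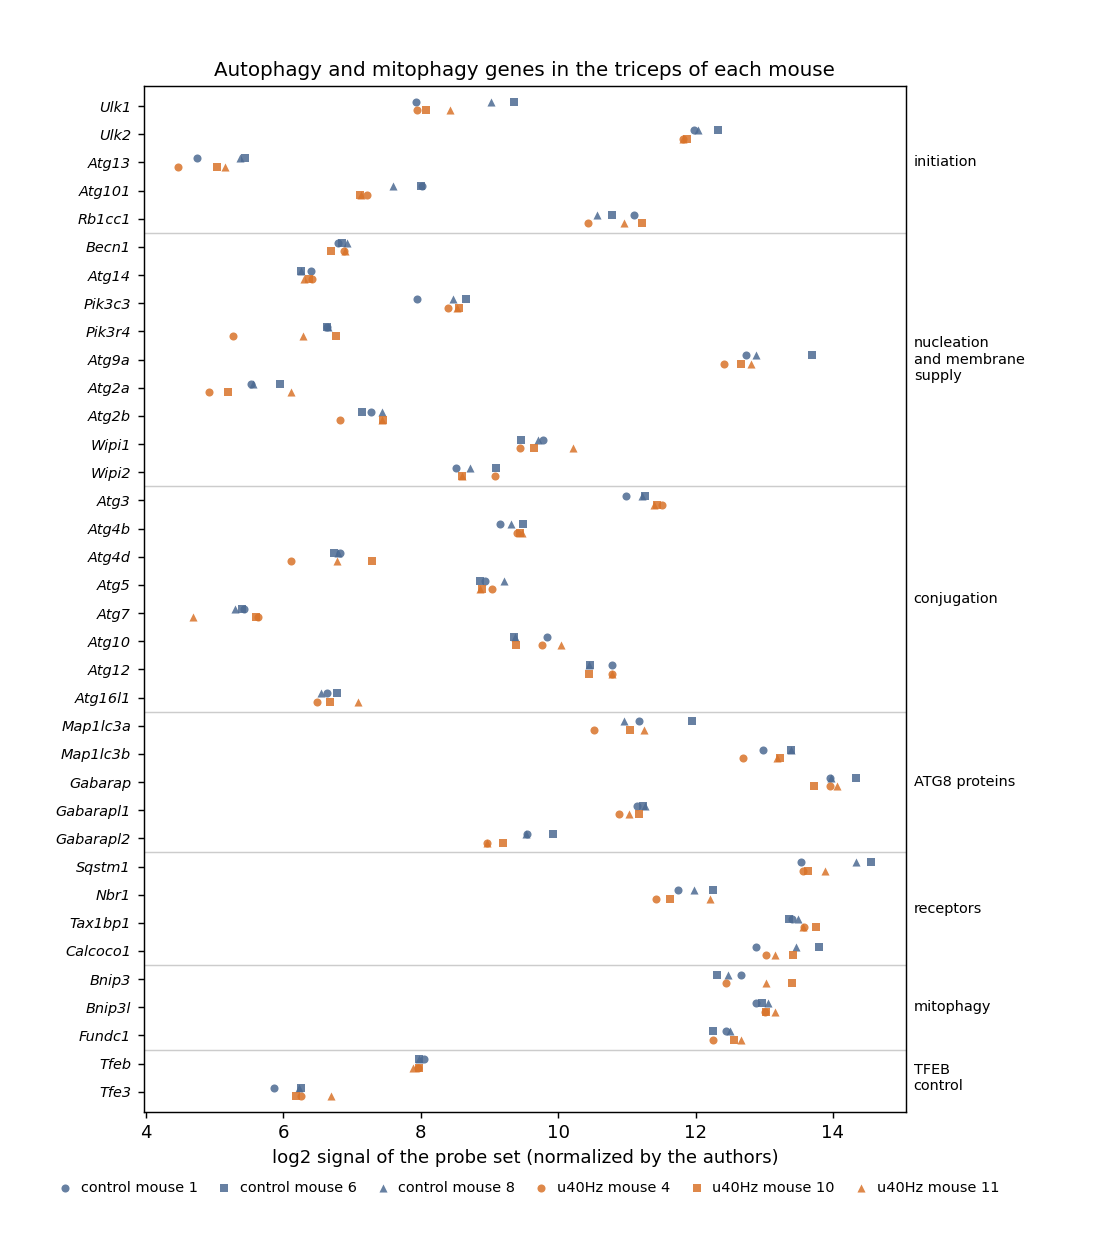
Log2 signal (x axis) of the 36 measured genes in each mouse, with control mice in blue and u40Hz mice in orange and the genes grouped by their role. For *Atg101* and *Gabarapl2* the 3 orange points lie to the left of all 3 blue points.

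The initiation complex had the lowest median log2 fold change of the role groups, -0.30 over 5 genes. *Atg101* encodes a subunit that stabilizes ATG13 within the ULK1 complex. Its log2 signals were 8.02, 8.01 and 7.60 in controls (mice 1, 6 and 8) and 7.21, 7.12 and 7.13 under stimulation (mice 4, 10 and 11), the order in which values are listed throughout. Every stimulated mouse lay below every control mouse, and the stimulated mice were nearly alike. The mean was 7.88 ± 0.24 (SD, n = 3) in the control group and 7.15 ± 0.05 (SD, n = 3) with stimulation, a log2 fold change of -0.72 (95% confidence interval from -1.17 to -0.28), which is a 1.65-fold difference. The unadjusted p from limma was 0.00553, the 181st smallest of all probe sets, and the adjusted p was 0.635. An exact two-sided permutation test gave p = 0.1, below which a design of 3 against 3 cannot go. Leaving out each mouse in turn gave values between -0.86 and -0.65, and each of those 6 fits had an unadjusted p under 0.05.

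*Ulk1*, the kinase that starts autophagosome formation, had a log2 fold change of -0.63, nearly as large, but with a wide spread. Its signals were 7.93, 9.36 and 9.02 in controls and 7.94, 8.07 and 8.42 under stimulation. Control mouse 1 was the lowest of all 6 mice and control mouse 6 the highest, so the groups overlapped. The 95% confidence interval ran from -1.44 to 0.19, with an unadjusted p of 0.114 from limma, and without control mouse 6 the difference was -0.33. The related kinase *Ulk2* was at 11.98, 12.33 and 12.03 in controls and 11.82, 11.88 and 11.82 under stimulation. Its groups did not overlap, and the difference was small, with a log2 fold change of -0.27 (95% confidence interval from -0.70 to 0.15, unadjusted p = 0.179 from limma). *Atg13*, the regulatory partner of the kinase, was at -0.30 on the same scale (unadjusted p = 0.298 from limma). Its signal was under the median of the arrays, between 4.47 and 5.44. *Rb1cc1*, which encodes the scaffold FIP200, had a log2 fold change of 0.05, with a confidence interval from -0.54 to 0.64. Of the 5 genes of the complex 4 had a lower mean, and 1 passed an unadjusted p under 0.05. The sign of *Rb1cc1* turned without control mouse 8 (-0.08) and without u40Hz mouse 10 (-0.13), so that in those 2 fits all 5 were lower.

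**Figure D2:**
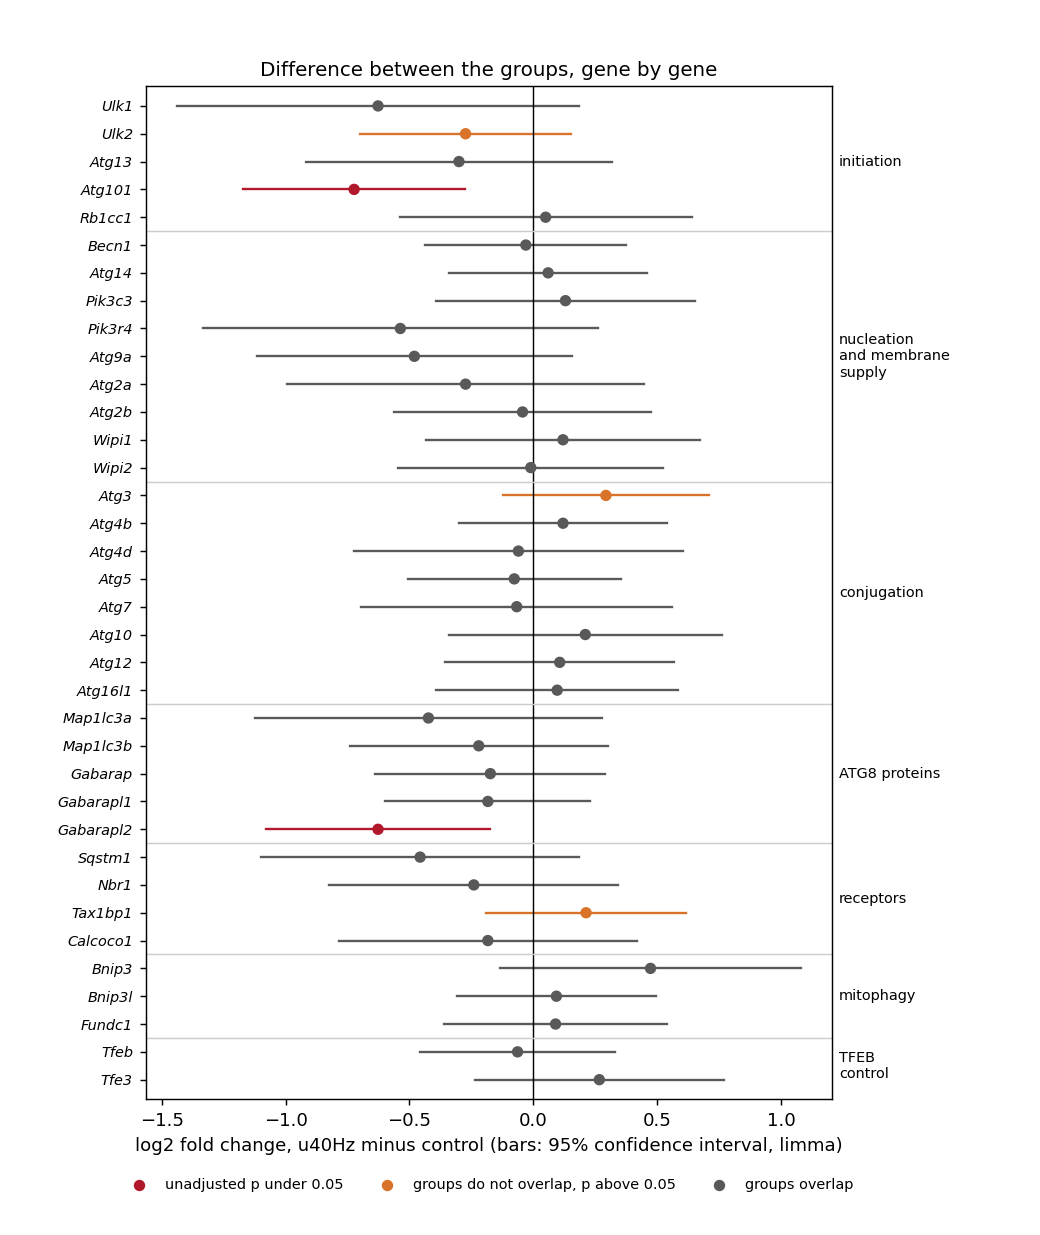
Log2 fold change (x axis, u40Hz minus control) of each gene with its 95% confidence interval from limma, grouped by role. The intervals of *Atg101* (from -1.17 to -0.28) and *Gabarapl2* (from -1.08 to -0.17) lie wholly below 0, and those of the other 34 genes include 0.

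Membrane nucleation and supply showed no gene at an unadjusted p under 0.05 among 9, with 3 higher and 6 lower means and log2 fold changes from -0.54 to 0.13. *Becn1*, which encodes Beclin 1, was among the most even of them, between 6.70 and 6.92 in all 6 mice, with a log2 fold change of -0.03 and a confidence interval from -0.44 to 0.38. *Atg14*, the subunit that directs the lipid kinase to autophagy, was at 0.06, and *Pik3c3*, its catalytic subunit VPS34, at 0.13. Without control mouse 1 the value of *Pik3c3* was -0.08. *Pik3r4*, the regulatory subunit VPS15, had the largest difference, -0.54 (confidence interval from -1.33 to 0.26). It rested on 1 mouse, since the signal was 6.64, 6.63 and 6.65 in the control mice, 6.76 and 6.29 in u40Hz mice 10 and 11, and 5.26 in u40Hz mouse 4. Without that mouse the log2 fold change was -0.12. *Atg9a*, which encodes the membrane protein whose vesicles seed the autophagosome, was at 12.74, 13.70 and 12.88 in controls and 12.41, 12.66 and 12.81 under stimulation. Its difference of -0.48 (unadjusted p = 0.121 from limma) was -0.18 without control mouse 6. The lipid transporters *Atg2a* and *Atg2b* were at -0.27 and -0.04. The value of *Atg2a* rested on single mice, being -0.03 without u40Hz mouse 4 and -0.63 without u40Hz mouse 11 (unadjusted p = 0.0339 from limma). The lipid-binding proteins *Wipi1* and *Wipi2*, which recruit the conjugation machinery, were at 0.12 and -0.01.

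The mean was higher for 5 of the 8 conjugation genes, the differences lay between -0.08 and 0.29, and none was at an unadjusted p under 0.05. *Atg3*, the enzyme that passes ATG8 proteins on to the membrane lipid, was at 10.98, 11.27 and 11.22 in control mice 1, 6 and 8. In u40Hz mice 4, 10 and 11 it was at 11.51, 11.44 and 11.40, above every control mouse. The log2 fold change was 0.29 (95% confidence interval from -0.12 to 0.71), and limma gave an unadjusted p of 0.144 (adjusted p = 0.75). *Atg10*, the enzyme that joins ATG12 to ATG5, was at 0.21, and the protease *Atg4b*, which trims ATG8 proteins, at 0.12. *Atg12* and *Atg16l1*, parts of the complex that directs conjugation, were at 0.11 and 0.10, and *Atg5*, the other part of it, at -0.08. The activating enzyme *Atg7* was at -0.07 with a dim signal (from 4.68 to 5.63), and the protease *Atg4d* at -0.06. The sign of both of these small values rested on a single mouse. *Atg4d* was at 0.25 without u40Hz mouse 4, where it was lowest (6.11), and *Atg7* was at 0.25 without u40Hz mouse 11, where it was lowest (4.68).

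The promoters were read for the letters to which TFEB binds, because members of the list are known as its targets and because the same letters are bound by the clock factors BMAL1 and CLOCK. The E-box CACGTG, which reads the same on both strands, was found in 5 of 34 RefSeq promoter windows (14.7%) of 29 measured members (GRCm38.p6, from 250 bases before to 50 bases after a transcript start), where 7.15% of all 32851 windows held it. The longer TFEB consensus known as the CLEAR element, which contains the E-box, was in 0 of the 34 and in 0.326% of all windows. The FOXO motif GTAAACA was in 0 of the 34 and in 3.65% of all, and the D-box TTATGTAA of the clock output factors in 0 of the 34 and in 0.938% of all, each searched on both strands. Only exact matches to the letters of a motif were counted. For the motifs without a match, 34 windows are too few to compare with all windows. A match is a description of letters, not a binding site. The stretches upstream of the start in 4 of the 5 windows are shown with the E-box in capitals. *Atg3* and *Bnip3* among them had the highest log2 fold changes of the conjugation and the mitophagy genes. That was the reason for showing them, so they were picked by their values, and a link between motif and difference was not tested. The fifth match, in *Atg14*, did not lie wholly before the start, and its stretch is not shown.
Atg3, chr16:45158715-45158783, + strand: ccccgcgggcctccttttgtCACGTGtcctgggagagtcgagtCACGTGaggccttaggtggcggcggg
Atg5, chr10:44268305-44268338, + strand: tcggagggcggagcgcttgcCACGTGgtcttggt
Atg7, chr6:114670944-114670989, + strand: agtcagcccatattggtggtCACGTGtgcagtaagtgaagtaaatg
Bnip3, chr7:138909589-138909634, - strand: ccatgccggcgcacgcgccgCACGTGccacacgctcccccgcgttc
*Atg3* held 2 E-boxes, 65 and 88 bases before the start. The genes with an E-box had log2 fold changes of 0.29 (*Atg3*), -0.08 (*Atg5*), -0.07 (*Atg7*), 0.47 (*Bnip3*) and 0.06 (*Atg14*), so they did not differ in 1 direction. Neither *Atg101* nor *Gabarapl2* was among the members with a match to any of the 4 motifs, though not every measured member had a window.

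All 5 ATG8 genes were lower on average under u40Hz stimulation, by log2 fold changes between -0.63 and -0.17 (median -0.22). That direction held for each of the 5 under every normalization, covariate and left-out mouse tried, and only *Gabarapl2* had an unadjusted p under 0.05. *Gabarapl2* encodes GATE-16, a protein of the GABARAP branch that acts late, in the closing of the autophagosome. It was at 9.55, 9.92 and 9.53 in controls and 8.96, 9.19 and 8.97 under stimulation. No stimulated mouse reached the lowest control mouse. The mean was 9.67 ± 0.22 (SD, n = 3) in the control group and 9.04 ± 0.13 (SD, n = 3) with stimulation, a 1.54-fold difference. The log2 fold change of -0.63 (95% confidence interval from -1.08 to -0.17) had an unadjusted p of 0.0124 in limma (adjusted p = 0.695) and an exact two-sided permutation p of 0.1. With any 1 mouse left out it lay between -0.70 and -0.50, and it passed an unadjusted p of 0.05 in 5 of 6 fits, the exception being that without control mouse 6.

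The other 4 ATG8 genes overlapped between the groups. *Map1lc3a*, which encodes LC3A, was at 11.17, 11.95 and 10.96 in controls and 10.52, 11.04 and 11.25 under stimulation. Its log2 fold change was -0.42 (unadjusted p = 0.203 from limma), -0.13 without control mouse 6, the highest of all, and -0.22 without u40Hz mouse 4, the lowest. *Map1lc3b*, the LC3 form most used as a marker of autophagosomes, was at 12.98, 13.39 and 13.39 in controls and 12.69, 13.23 and 13.18 under stimulation. Its difference of -0.22 had a confidence interval from -0.74 to 0.30, which includes 0 as well as a difference of the size seen for *Atg101*, and it was -0.05 without u40Hz mouse 4. *Gabarap* was at 13.95, 14.34 and 13.97 in controls and 13.96, 13.72 and 14.06 under stimulation, a log2 fold change of -0.17. *Gabarapl1* was at 11.14, 11.23 and 11.27 in controls and 10.89, 11.17 and 11.03 under stimulation, a log2 fold change of -0.18. With any 1 mouse left out *Gabarap* ran from -0.25 to -0.05 and *Gabarapl1* from -0.25 to -0.11. The ATG8 genes form a family of related sequences, and the probes were not checked for binding to more than 1 of them.

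**Figure D3:**
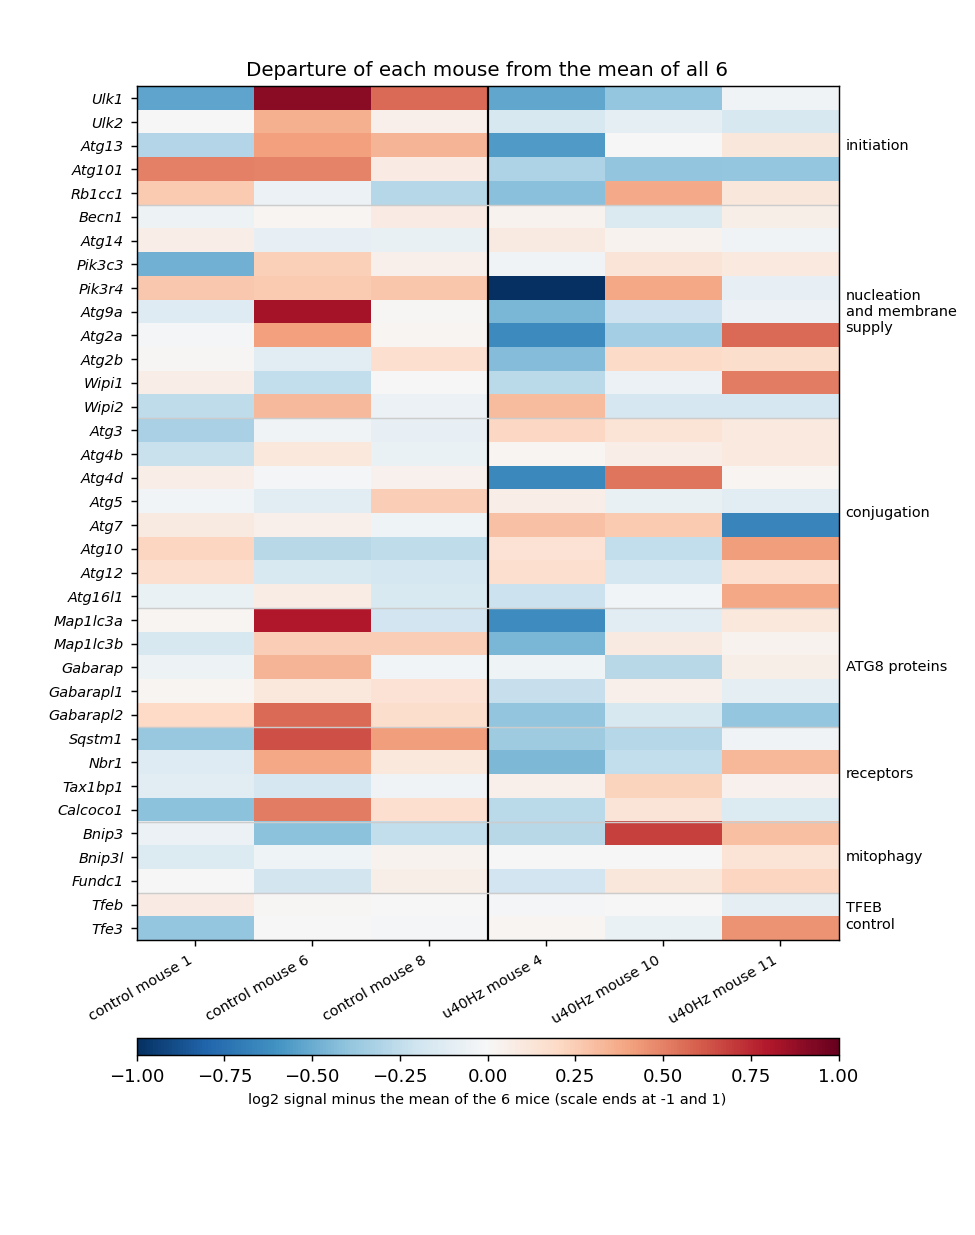
Log2 signal of each gene (rows, grouped by role) in each mouse (columns, control mice to the left of the line) minus the mean of that gene over the 6 mice, with red above and blue below the mean. The column of control mouse 6 is the reddest, with the highest value for 13 of 36 genes, and that of u40Hz mouse 4 the bluest, with the lowest value for 15.

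Among the cargo receptors *Sqstm1*, which encodes p62, the receptor that binds ubiquitin and LC3, had the largest difference. It was at 13.54, 14.56 and 14.34 in controls and 13.56, 13.63 and 13.88 under stimulation. As for *Ulk1*, control mouse 1 was the lowest of the 6 and control mouse 6 the highest. The log2 fold change was -0.46 (95% confidence interval from -1.10 to 0.18, unadjusted p = 0.14 from limma), and -0.25 without control mouse 6. *Nbr1*, a receptor related to p62, was at -0.24, and *Calcoco1*, a receptor for the endoplasmic reticulum and Golgi, at -0.18. *Tax1bp1*, a receptor that also binds ubiquitin, went the other way with no overlap, at 13.41, 13.36 and 13.49 in controls and 13.58, 13.75 and 13.57 under stimulation. Its difference was small, with a log2 fold change of 0.21 (unadjusted p = 0.26 from limma). So 3 of 4 receptors had a lower and 1 a higher mean, and none an unadjusted p under 0.05. Without control mouse 6 *Calcoco1* was at 0.03, which leaves 2 of 4 lower.

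The 3 mitophagy receptors all had a higher mean, without any at an unadjusted p under 0.05. *Bnip3*, a receptor of the outer mitochondrial membrane that is induced by low oxygen, was at 12.66, 12.31 and 12.47 in controls and 12.44, 13.40 and 13.02 under stimulation. Mice 10 and 11 lay above all controls and mouse 4 among them. Its mean was 12.48 ± 0.18 (SD, n = 3) in the control group and 12.95 ± 0.48 (SD, n = 3) with stimulation, the largest higher value of the 36 genes (log2 fold change 0.47, 95% confidence interval from -0.13 to 1.08). The unadjusted p from limma was 0.111 and the adjusted p 0.736. Without u40Hz mouse 4, in which the adipocyte markers stood far above the other mice, the log2 fold change was 0.73 (unadjusted p = 0.0132 from limma, not adjusted over genes). With the mean of the adipocyte markers as a covariate it was 0.71 (unadjusted p = 0.0162 from limma). That mean mainly sets u40Hz mouse 4 apart, so this fit cannot be told apart from the one without that mouse. With the mean of the slow fibre markers as a covariate the log2 fold change of *Bnip3* was 0.32 (unadjusted p = 0.26 from limma). The 2 covariates moved the value in opposite directions, and what part either kind of cell has in the difference was not tested beyond these fits.

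*Bnip3l*, which encodes the related receptor NIX, was the most even of the mitophagy genes. It was at 12.88, 12.97 and 13.05 in controls and 13.01, 13.02 and 13.15 under stimulation, a log2 fold change of 0.09 (95% confidence interval from -0.31 to 0.50). *Fundc1*, a receptor that also acts under low oxygen, was at 12.44, 12.26 and 12.50 in controls and 12.25, 12.56 and 12.66 under stimulation, a log2 fold change of 0.09 as well. For *Bnip3l* the spread between mice of a group was about as large as the difference between the groups (SD 0.09 in controls and 0.08 under stimulation). For *Fundc1* it was larger than the difference (SD 0.12 and 0.21).

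*Tfeb*, the transcription factor that switches on autophagy and lysosome genes, was among the steadiest signals of the list. It was at 8.05, 7.98 and 7.97 in controls and 7.96, 7.97 and 7.88 under stimulation. The log2 fold change was -0.06, with a 95% confidence interval from -0.46 to 0.33 that rests on the spread shared over all probe sets. The related factor *Tfe3* was at 5.86, 6.25 and 6.22 in controls and 6.26, 6.18 and 6.69 under stimulation, a log2 fold change of 0.27 (unadjusted p = 0.257 from limma). Both factors are controlled largely by their entry into the nucleus, which arrays do not measure.

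The genes differed among mice of the same group in ways that crossed the list. Control mouse 6 had the single highest value of the 6 mice for 13 of 36 members (36.1%), where it had the highest for 18.2% of all probe sets. Control mouse 1 had the lowest for 9 of 36 members, against 14.2% of all probe sets, and u40Hz mouse 4 the lowest for 15 (41.7%, against 20.8%). The latter is the mouse with the high adipocyte markers. With the adipocyte mean as a covariate *Atg101* was at -0.72 and *Gabarapl2* at -0.56 (unadjusted p of 0.0127 and 0.0352 from limma), while *Pik3r4* was at -0.13 and *Map1lc3a* at -0.17. That covariate mainly sets u40Hz mouse 4 apart, so fat cells and any other trait of that mouse cannot be told apart in this fit. The spread within the control group was widest for *Ulk1* (SD 0.75), *Sqstm1* (SD 0.54), *Map1lc3a* (SD 0.52) and *Atg9a* (SD 0.52), and in all 4 the highest mouse was control mouse 6. That mouse had the lowest mean of the slow fibre markers, 7.63, and control mouse 1 the highest, 12.81. Control mouse 8 had the lowest mean but 1 of those markers (9.23) and the second highest signal of *Ulk1*, *Sqstm1* and *Atg9a*. For *Map1lc3a* it was at 10.96, below control mouse 1 (11.17). The mouse with the third lowest mean, u40Hz mouse 4 (9.65), had low signals of all 4 genes. With the slow fibre mean as a covariate the log2 fold change was -0.37 for *Ulk1*, -0.27 for *Sqstm1* and -0.35 for *Atg9a* (unadjusted p of 0.275, 0.333 and 0.263 from limma). For *Map1lc3a* it was -0.38 (unadjusted p of 0.305), little different from -0.42 without the covariate. It was -0.74 for *Atg101* and -0.58 for *Gabarapl2* in the same fit (unadjusted p of 0.0118 and 0.0327 from limma), close to their values without it. The part of fibre type in the differences between mice was not tested otherwise.

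**Figure D4:**
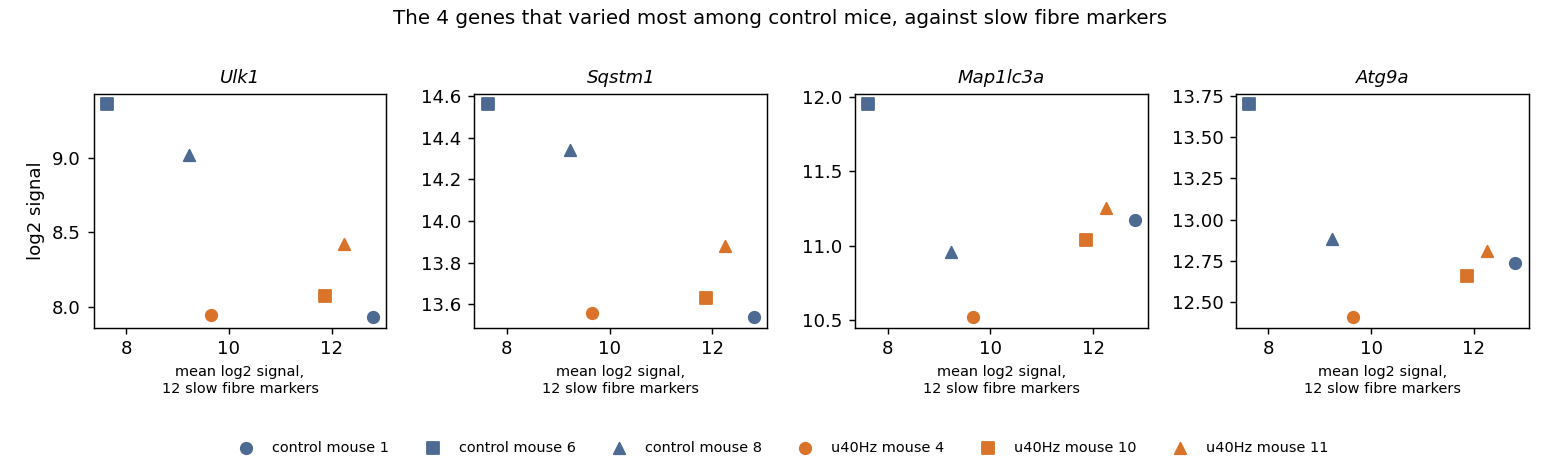
Log2 signal (y axes, each with its own range) of the 4 genes with the largest SD in the control group against the mean log2 signal of 12 slow fibre markers (x axes), 1 point per mouse, control mice in blue and u40Hz mice in orange. Control mouse 6, at 7.63 on the x axis, has the highest signal of all 4 genes, and control mouse 1, at 12.81, has the lowest signal of *Ulk1* and *Sqstm1*.

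The number of members under an unadjusted p of 0.05 varied with the mouse left out. Without control mouse 1 there were 4, with *Ulk1* (log2 fold change -1.05, unadjusted p = 0.00342 from limma) and *Sqstm1* (-0.76, unadjusted p = 0.0109) beside *Atg101* and *Gabarapl2*. Without control mouse 6 there was 1, *Atg101*. Over all 22206 probe sets there were 1777 without control mouse 1 and 1007 without control mouse 6, beside 1556 with all mice. In both of these fits the count over the whole array moved the same way as that of the members. In others it did not. Without u40Hz mouse 4 there were 3 members and 1412 probe sets, and without u40Hz mouse 11 there were 3 and 1462. Without control mouse 8 there were 2 members and 1085 probe sets. No member passed the adjusted threshold in any of these fits.

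Beyond the members, 96 of 105 further genes of the pathway were measured, and none passed an adjusted p under 0.05 in limma. The mean was higher for 37 and lower for 59 of them, with a median log2 fold change of -0.08. At an unadjusted p under 0.05 there were 3 (3.12%, against 7.01% of all probe sets), 1 higher and 2 lower. The groups did not overlap for 14 (14.6%, against 12.4% of all). Of these 2 were higher and 12 lower, where the shares of all probe sets were 6.4% higher and 6.05% lower. The split by direction was not tested. The largest of the lower ones at an unadjusted p under 0.05 was *Prkab2*, a regulatory subunit of the energy sensor AMPK that phosphorylates ULK1. Its signals were 14.43, 14.91 and 14.61 in controls and 14.42, 13.99 and 13.79 under stimulation. Control mouse 1 and u40Hz mouse 4 were practically level, and the groups differed by -0.58 in log2 signal (limma, unadjusted p = 0.0355 and adjusted p = 0.711). *Prkag3*, the AMPK subunit of fast fibres, was at -0.90 (unadjusted p = 0.0552 from limma) with overlapping groups, and was highest in control mouse 6 (10.64). *Rragc*, a GTPase that signals amino acids to mTORC1 and TFEB, was at 0.44, and *Lamtor2*, part of its anchor on the lysosome, at -0.27. Of 26 genes of nutrient signalling 13 were higher and 13 lower.

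In the core machinery outside the list, 5 of 15 genes were higher and 10 lower. The remaining ATG4 proteases both had groups without overlap. *Atg4c* was at 7.52, 7.56 and 7.65 in controls and 7.13, 7.13 and 7.25 under stimulation, which differ by -0.41 (limma, unadjusted p = 0.0463 and adjusted p = 0.711). No fit with a mouse left out gave it an unadjusted p under 0.05. *Atg4a* was at -0.47 (unadjusted p = 0.0737) and -0.26 without u40Hz mouse 4. *Atg4b* and *Atg4d* of the list were at 0.12 and -0.06, and the difference between the proteases was not tested. *Wdfy3*, a scaffold for protein aggregates, was at -0.32 and *Rubcn*, an inhibitor of the lipid kinase, at -0.29, both with overlapping groups.

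Of 14 genes of fusion with the lysosome, 5 were higher and 9 lower, and none had an unadjusted p under 0.05. *Vps41*, a subunit of the HOPS tether, was at 8.92, 9.15 and 9.09 in controls and 8.48, 8.81 and 8.63 under stimulation, a log2 fold change of -0.41 (unadjusted p = 0.0577 from limma). The SNARE protein *Ykt6* was at -0.27, also without overlap, and *Stx17*, the SNARE of the autophagosome, at -0.24 with overlap. *Plekhm1*, an adaptor of the tether, was at -0.32. Among 20 measured lysosomal genes 7 were higher and 13 lower, again with none at an unadjusted p under 0.05. *Lamp2*, the membrane protein needed for autophagosomes to mature in muscle, was at 14.58, 14.64 and 14.64 in controls and between 14.82 and 15.16 under stimulation, a log2 fold change of 0.37 (unadjusted p = 0.0745 from limma). The hydrolases *Gla* and *Ctsa* went the other way without overlap, at -0.36 and -0.37. *Ctsz* was at 0.44, and that value came from u40Hz mouse 4 (9.36, against 7.97 to 8.31 in the others).

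None of 12 further mitophagy genes had an unadjusted p under 0.05, with 4 higher and 8 lower means. *Fkbp8*, a receptor of the outer mitochondrial membrane, was at -0.33 and the ubiquitin ligase *Mul1* at -0.22, both without overlap and both opposite in sign to *Bnip3*, *Bnip3l* and *Fundc1*. *Nipsnap1*, a tag on damaged mitochondria, was at 0.28 and the deubiquitinase *Usp15* at -0.15. The signal of *Nipsnap1* was under the median of the arrays, between 4.44 and 5.43. Among 9 transcriptional regulators 3 were higher and 6 lower. *Mitf*, a relative of *Tfeb*, was at 9.79, 9.18 and 9.84 in controls and 10.02, 10.02 and 10.22 under stimulation, a log2 fold change of 0.48 without overlap (unadjusted p = 0.0656 from limma). *Foxo3*, which drives autophagy genes in muscle during fasting, was at -0.39 without overlap (unadjusted p = 0.0861 from limma). Its signal was dim, between 5.04 and 5.85, near the median of the arrays. *Ppargc1a*, the coactivator of mitochondrial genes, was at 0.80 (unadjusted p = 0.0404, adjusted p = 0.711 from limma). Control mouse 1 (13.56) lay within the stimulated group, whose lowest value was 13.53, and control mouse 6 was far lower (12.17). *Hif1a*, which drives *Bnip3* under low oxygen, was at 0.26 (unadjusted p = 0.357).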

How the data were processed

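RNA of each mouse was hybridized to its own Clariom S mouse array (Affymetrix, 1 colour). The scans were normalized by the authors with the Transcriptome Analysis Console, and they deposited log2 signals for 22206 probe sets, with array medians from 5.53 to 5.61. The sources used here name neither the summary method nor the genome build. Summarising pulls probes of a gene together and limits how far single probes can be judged. A platform annotation gave 1 symbol to 19572 probe sets. No member reached the upper limit of the scale (19.93), and precision is limited by the number of arrays. Separate mice are the replicates.

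The limma package (3.58.1, R 4.3.3) was run on all probe sets with its functions lmFit and eBayes, two-sided (log2 fold change: u40Hz minus control). The exact permutation test over the mice cannot give a p under 0.1. The model was tested on simulated data. Members, gene lists and alternatives were chosen with earlier results of these data known. The members are all described, with each mouse's value for those without overlap, those at an unadjusted p under 0.05, for the ATG8, mitophagy and TFEB genes, and for some others (*Ulk1*, *Sqstm1*, *Atg9a*, *Pik3r4*) that were singled out after their values were seen. Of each of 6 further lists up to 4 genes with the smallest unadjusted p are named. The alternatives were other models of the spread, array weights, 2 other normalizations, dim probe sets left out, probe sets averaged by gene, marker means as covariates, the rank-sum test and leaving out each mouse. Promoter sequences are from RefSeq (GRCm38.p6).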

Additional observations from a re-analysis of the deposited data

How the results depend on the processing

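The number of members with an adjusted p under 0.05 was 0 under all 15 alternative fits, and their median log2 fold change stayed between -0.10 and -0.04. It ran from -0.10 to -0.05 over the fits without 1 mouse. The number of members at an unadjusted p under 0.05, 2 as reported, was 4 with no moderation of the variance (*Atg3* and *Tax1bp1* in addition), from 1 to 4 without 1 mouse, 3 with the adipocyte covariate, and 0 with the exact rank-sum test, which cannot give a p under 0.1 here. Over all probe sets, the 1556 at an unadjusted p under 0.05 became 922 with dim probe sets left out, where fewer were tested (11245, and 33 of the members), and from 1007 to 1838 without 1 mouse.

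Of 321 values of single members under alternatives other than a left-out mouse, 315 kept their sign. The others were *Atg2b* (0.13) and *Atg4d* (0.24) with the adipocyte covariate, *Rb1cc1* (-0.11), *Wipi1* (-0.0071) and *Wipi2* (0.16) with the slow fibre covariate, and *Wipi2* (0.011) after quantile normalization. The cause was not tested. Without 1 mouse, 11 members changed sign in at least 1 fit. Their ranges were -0.072 to 0.23 for *Atg16l1*, -0.15 to 0.16 for *Atg2b*, -0.34 to 0.25 for *Atg4d*, -0.15 to 0.027 for *Atg5*, -0.23 to 0.25 for *Atg7* and -0.067 to 0.033 for *Becn1*. They were -0.43 to 0.027 for *Calcoco1*, -0.078 to 0.28 for *Pik3c3*, -0.13 to 0.27 for *Rb1cc1*, -0.11 to 0.29 for *Wipi1* and -0.17 to 0.15 for *Wipi2*. *Atg101* and *Gabarapl2* kept their sign in all 15 fits. *Atg13*, *Atg2a* and *Atg7* were the dim members, left out with the dim probe sets. No paired analysis was possible because the groups share no mouse number.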
